A study of Mus musculus with 32 samples.

Results

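Forkhead transcription factors were followed from a monocyte graft into the colon and ileum of mice through 9 genes, Foxa1, Foxa2, Foxa3, Foxd2, Foxp1, Foxp4, Foxo1, Foxo3 and Foxn3. They were found by symbol among the 24411 genes counted for CD11c-DTR recipients and the 24421 genes counted for CX3CR1-DTR recipients, and each was listed in both. The list was chosen by name and not by a threshold on expression.

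Forkhead factors bind DNA through a winged-helix domain, whose recognition helix lies in the major groove. FOXA proteins can open compacted chromatin and are needed for the development of endoderm-derived organs, including the gut epithelium. FOXP proteins act mainly as repressors and take part in the differentiation of blood cells and epithelia, whereas FOXO proteins are held in the cytoplasm when AKT or SGK kinases phosphorylate them and enter the nucleus when that signal falls.

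The study asked how Ly6C+ monocytes turn into macrophages of different gut segments, by bulk RNA sequencing of sorted cells. The graft came from Cx3cr1 GFP/+ donors carrying the CD45.1 allotype and was sorted as CD117- CD11b+ CD115+ Ly6C+ GFPint cells (3 libraries). The study's methods place it in bone marrow, while its labels give blood as the source. Recipients were wild-type mice on a C57BL/6 background, irradiated at 7 to 10 weeks of age and given bone marrow that carried a diphtheria toxin receptor, driven by the Itgax (CD11c) promoter as a fusion with GFP in CD11c-DTR chimeras and by Cx3cr1 sequences in CX3CR1-DTR chimeras. Cells of the irradiated host do not carry the receptor. All recipients received diphtheria toxin, at 18 ng per g body weight before the transfer and 9 ng per g after it. No engrafted group was without toxin. Donor-derived cells were sorted by CD45.1 and GFP from CD11c-DTR recipients on day 4 (colon 3, ileum 4 libraries), day 8 (colon 3 used of 4, ileum 4) and day 12 (4 each), and by GFP from the colon of CX3CR1-DTR recipients on day 14 (6 libraries). Neither labels nor methods state that each library came from a separate animal, so p-values measure the spread between libraries, which may in part be technical. The CD11c-DTR libraries came from 3 dated experiments.

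The stretch coding for the recognition helix, the part of the protein that reads the DNA, is shown for Foxa3, Foxd2, Foxp4, Foxo3 and Foxn3. Each line gives 30 coding bases, 5′ to 3′, of mouse build mm9, and the 15 capitals mark the codons of the helix core. In Foxo3 and Foxp4 the stretch crosses an intron, so its genomic span exceeds 30 bases.
Foxa3: tggcagAACTCCATCCGGCATtcgctgtcc
Foxd2: tggcagAATAGCATCCGCCACaacctctcc
Foxp4: tggaagAATGCCGTGCGCCACaacctcagc
Foxo3: tggaagAACTCCATCCGGCACaacctgtcc
Foxn3: tggaagAACTCAGTGAGACACaacttgtca
The Foxa3 stretch lies at chr7:19600033-19600062 and the Foxd2 stretch at chr4:114580881-114580910, both on the minus strand. Reads were counted at the 3′ ends of transcripts, so likeness in this coding stretch does not imply shared reads.

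Library depth and the identity of the sorted cells bear on all values that follow. Reads on genes ranged from 591817 to 5228664 per CD11c-DTR library and from 1223772 to 4218027 per CX3CR1-DTR library, and levels are given as normalized reads, that is, per 10000000 mapped reads unless stated otherwise. A count of 3 reads, taken as the limit of what a count of 0 allows, equalled 3.51 to 27.65 normalized reads in CD11c-DTR libraries, for counting error only. Although the engrafted cells were labelled macrophages, the sum over 13 gut epithelial genes (Epcam, Cdh1, keratins and others) rose from 40.7–61.8 normalized reads in the graft, where Krt20, Vil1, Cldn3 and Tspan8 had no read, to 106961–169502 in the 10 colon libraries and 20213–51535 in the 8 ileum libraries of days 8 and 12. All 13 were called higher than in the graft in all 6 comparisons. Day 4 ileum was divided by experiment, with 128094 and 135028 in the experiment 1 libraries and 30210 and 38621 in those of experiment 2. The sum over 6 pan-leukocyte genes (Ptprc, Itgam and others) went the other way, from 65150–75416 in the graft to 1319–6053 in colon and 4055–28922 in ileum of days 8 and 12. The 9 macrophage genes in the tables summed to 9445–11947 in the graft, 3859–22099 in colon and 12776–104927 in ileum of days 8 and 12, and the list of monocyte genes, Ly6c2 and Ccr2 among them, from 29456–36250 in the graft to 120–1832 after engraftment. In bulk libraries, fewer cells of a type and less RNA per cell cannot be told apart, and the part of epithelial RNA in the results below was not tested.

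**Figure D1:**
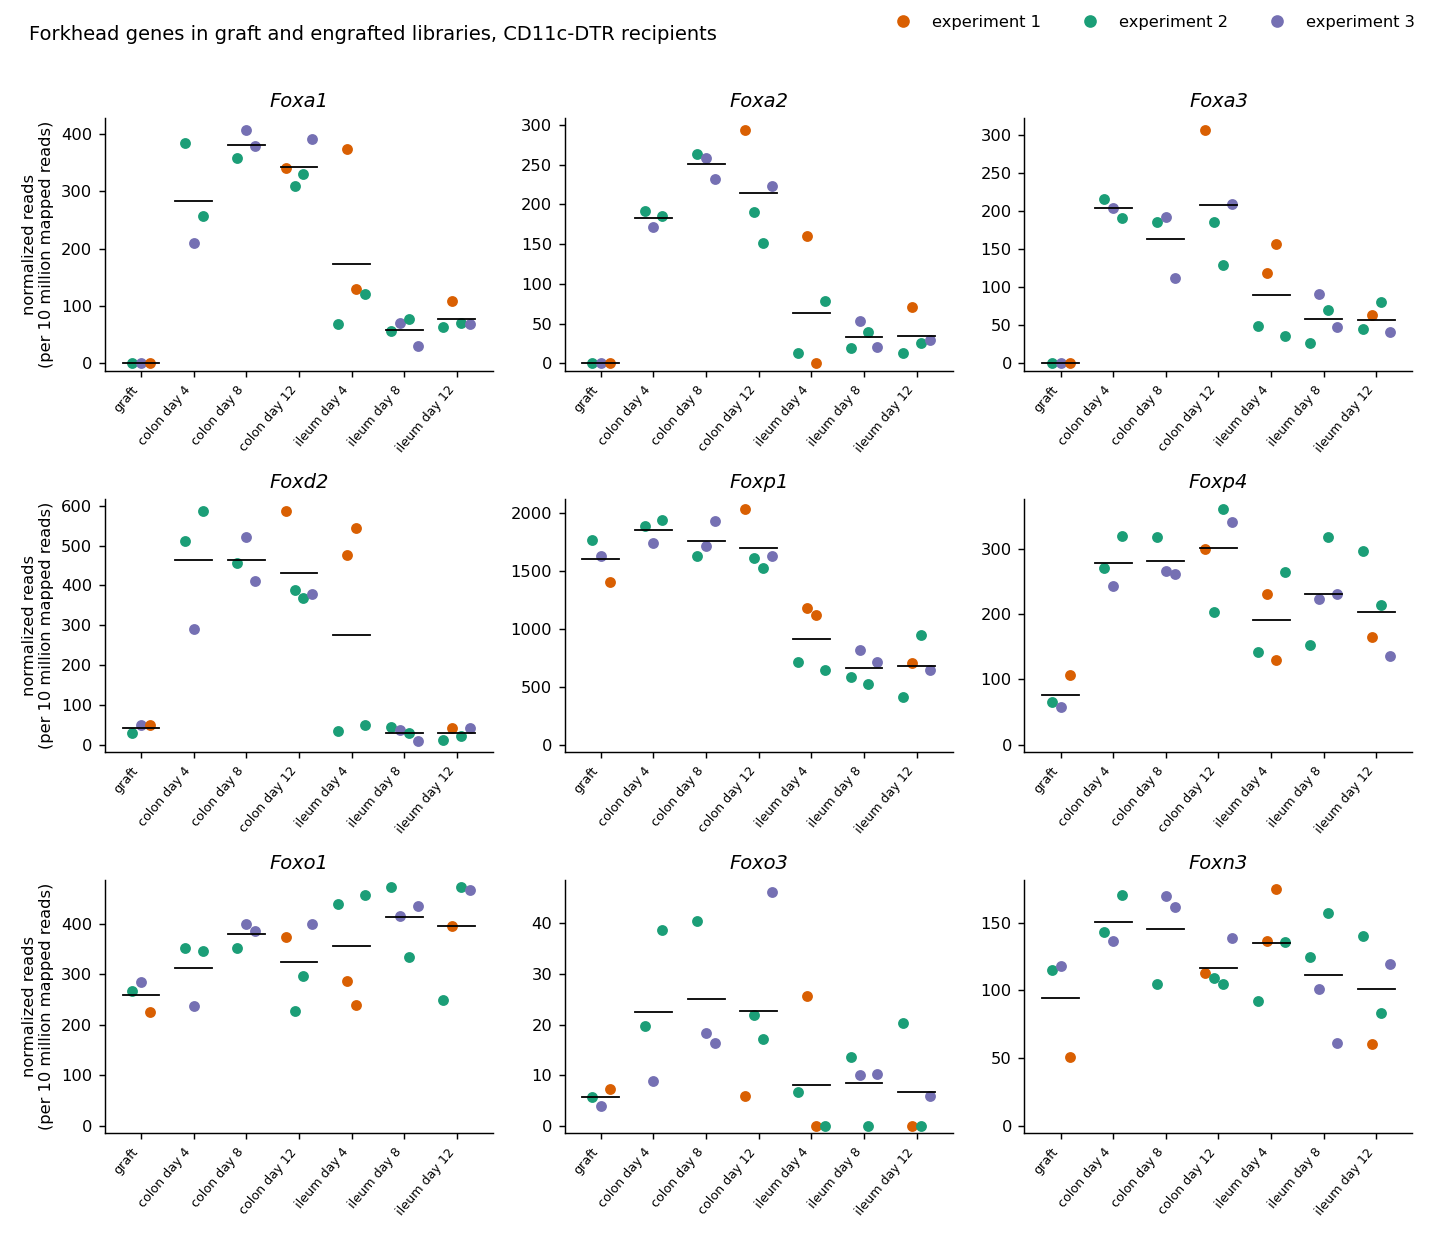
Normalized reads of the 9 genes in each CD11c-DTR library (points, coloured by experiment), with group means as horizontal lines; each panel has its own linear axis from 0. Foxa1, Foxa2 and Foxa3 lie at 0 in all 3 graft libraries, and the ileum day 4 points of Foxd2 split by experiment (476.1 and 543.7 against 33.0 and 49.9).

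Between graft and engrafted cells, 6 of the 8 genes that passed the filter on low counts rose in colon by day 4, 7 by day 8 and 6 by day 12, and in ileum 7 rose by day 4 and 5 by each of days 8 and 12 (edgeR quasi-likelihood test, Benjamini-Hochberg adjusted p below 0.05). Of all 11842 genes tested, 35.9%, 35.2% and 37.7% rose in colon and 36.2%, 34.3% and 35.9% in ileum at these times. The median log2 change of the 8 genes was 2.97 in colon by day 4, against 0.21 over all genes, and 1.70 in ileum by day 8, against 0.20. Foxa1, Foxa2 and Foxa3, and Foxd2 with graft values of 28.1 to 48.4 normalized reads, passed the filter through the engrafted libraries alone. Their part in these counts and medians was thus largely set by the filter. Scaling to library totals moved the median of all genes from 0.20–0.24 to between −0.35 and −0.04 and the share of rises among calls from 59.5–64.2% to 42.4–51.1%.

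The Foxa genes went from no read to a measurable level. Foxa1, a pioneer factor of endodermal tissues, had 0 normalized reads in all 3 graft libraries. In colon it had 383.6, 210.5 and 256.2 on day 4, then 357.9, 407.1 and 379.2 on day 8, and 340.6, 308.3, 330.1 and 390.9 on day 12. In ileum the values were 69.3, 373.6, 129.0 and 121.2 on day 4, then 56.9, 70.8, 77.0 and 30.6 on day 8, and 63.4, 109.0, 70.2 and 69.5 on day 12. All engrafted libraries lay above the graft, and on days 8 and 12 the colon and ileum ranges did not overlap. Against a limit of 3 counts per graft library, Foxa1 was at least 39.5-fold higher in colon by day 4 (edgeR adjusted p = 1.26e-09), at least 53.2-fold by day 8 and at least 47.8-fold by day 12. In ileum the bounds were 24.2-fold by day 4 (14.9-fold without replicate 2), 8.21-fold by day 8 (adjusted p = 2.34e-07) and 10.9-fold by day 12.

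Foxa2, the paralog required for node and endoderm formation, also had no graft read. It ranged from 151.1 to 293.9 normalized reads over the 10 colon libraries used. On day 4 in ileum it had 13.2, 160.1, 0 and 78.5, and 13.6 to 71.4 on days 8 and 12. At least 25.5-fold (adjusted p = 6.42e-07), 35-fold and 29.9-fold rises were reached in colon by days 4, 8 and 12. The ileal bounds were 8.78-fold (4.26-fold without day 4 replicate 2), 4.66-fold and 4.90-fold (3.22-fold without day 12 replicate 2), and 1 ileum library of day 4 lay at 0 like the graft. Foxa3, known from liver and from goblet and other secretory cells of the gut, had no graft read either and 112.4 to 307.5 normalized reads in colon, against 35.7 to 156.7 in ileum on day 4, a highest value of 91.0 on day 8 and 41.4 to 80.6 on day 12. Its bounds were 28.5-fold in colon by day 4 (adjusted p = 4.64e-09), 22.8-fold by day 8 and 29.1-fold by day 12, and 12.6-fold, 8.23-fold and 8.06-fold in ileum. All 22 engrafted libraries held Foxa3 reads.

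Foxd2, a forkhead gene of mesenchymal and kidney development, was low in the graft but not absent, with 28.1, 48.4 and 48.4 normalized reads. Colon had 510.8, 290.5 and 587.7 on day 4, then 455.9, 521.9 and 410.8 on day 8, and 585.8, 389.2, 367.9 and 379.3 on day 12. In ileum, day 4 gave 476.1 and 543.7 in experiment 1 but 33.0 and 49.9 in experiment 2, followed by 10.2 to 43.4 on day 8 and 11.3 to 42.9 on day 12. Colon libraries were thus all above the graft, while ileum libraries other than the experiment 1 pair of day 4 lay in or near the graft range. The log2 fold change from graft to colon was 3.76 ± 0.69 (SE) by day 4 (edgeR adjusted p = 5.62e-05), 3.69 ± 0.69 by day 8 and 3.67 ± 0.67 by day 12. From graft to ileum it was 3.14 ± 0.67 by day 4 (adjusted p = 0.000347), and 0.30 (adjusted p = 0.648) with the experiment 2 libraries alone. Foxd2 did not pass the test in ileum by day 8 (adjusted p = 0.957) or day 12 (adjusted p = 0.971).

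The adjacent long non-coding RNA gene Foxd2os lies 390 bases from Foxd2 on the opposite strand (chr4:114581894-114593723, plus strand, mm9), and it was looked up after the values of Foxd2 were seen. Counting used the sense strand. Foxd2os had 75.6 to 109.5 normalized reads in the graft, 305.4 to 595.1 in colon on day 4 and 288.6 to 888.1 on day 12, but 37.4 to 67.8 in ileum on day 8 and 23.4 to 63.9 on day 12. The rise from graft to colon by day 4 was 2.60 ± 0.55 on the log2 scale (edgeR adjusted p = 0.000296). Across the 22 engrafted libraries, log2 levels of Foxd2os and Foxd2 had a Pearson correlation of 0.964, over points that share experiments and sorted populations.

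The start regions of Foxd2, the gene that differed most between segments, and of Foxa1, the Foxa gene with the smallest adjusted p from graft to colon by day 4, are shown as RefSeq gives them on build GRCm38.p6, from 250 bases before to 50 bases after the transcription start. The Foxa1 window is chr12:57546062-57546361 and the Foxd2 window is chr4:114908849-114909148, both on the minus strand.
Foxa1: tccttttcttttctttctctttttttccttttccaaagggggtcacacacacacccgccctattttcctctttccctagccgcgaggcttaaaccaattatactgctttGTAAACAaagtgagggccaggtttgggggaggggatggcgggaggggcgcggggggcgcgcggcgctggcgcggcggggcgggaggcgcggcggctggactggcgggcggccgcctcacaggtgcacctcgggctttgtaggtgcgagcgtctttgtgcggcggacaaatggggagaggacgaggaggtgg
Foxd2: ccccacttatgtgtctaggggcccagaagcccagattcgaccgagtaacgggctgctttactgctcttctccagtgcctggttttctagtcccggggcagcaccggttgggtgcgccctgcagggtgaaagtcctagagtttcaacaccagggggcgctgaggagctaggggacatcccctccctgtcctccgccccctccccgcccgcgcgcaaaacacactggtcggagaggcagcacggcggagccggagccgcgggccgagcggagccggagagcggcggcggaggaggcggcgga
Capitals mark the single match to the forkhead core TGTTTAC, searched on both strands. This match was present in the Foxa1 window and in 3.65% of all 32851 windows of this length (1199), and not in the Foxd2 window. The HNF4 core CAAAGTCCA, in 0.47% of windows, was found in neither. Both windows held 26 CG dinucleotides, against a median of 7 over all windows.

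Foxp1 and Foxp4 behaved differently from each other. Foxp1, which is needed for B lymphocyte development and is known to hold back monocyte differentiation, was already expressed in the graft with 1771.2, 1635.3 and 1404.6 normalized reads. Colon values stayed between 1530.1 and 2041.5 in the 10 libraries used, whereas ileum had 649.0 to 1184.9 on day 4, 522.0 to 819.2 on day 8 and 414.3 to 951.6 on day 12. All 12 ileum libraries lay below all 3 graft libraries. By day 4 in ileum Foxp1 did not pass (−0.35, adjusted p = 0.238), although it did with library totals (−0.80, 0.00834) and with experiment 2 alone (−0.84, 0.0109). It fell in ileum by 0.71 ± 0.25 on the log2 scale by day 8 (edgeR adjusted p = 0.0195) and by 0.78 ± 0.25 by day 12 (adjusted p = 0.0105), where 19.5% and 20.0% of all genes fell. The day 8 call was lost without graft replicate 1 (adjusted p = 0.0584), ileum day 8 replicate 1 (0.054) or replicate 3 (0.067), and with only the groups compared (0.0589). In colon Foxp1 did not pass the test on any day, the change by day 4 being 0.55 (adjusted p = 0.079), or 0.63 (adjusted p = 0.0389) with the experiment as a block. It was also called there by DESeq2 (0.0479), with ileum day 4 of experiment 2 only (0.0358) and with only the groups compared, the last on day 8 (0.0245) and day 12 (0.0211) as well as day 4 (0.00477).

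Foxp4, a repressor expressed in lung and gut epithelium, had 64.6, 58.1 and 106.6 normalized reads in the graft. It had 202.4 to 360.6 in the 10 colon libraries and 129.0 to 317.9 in the 12 ileum libraries. No engrafted library overlapped the graft. Foxp4 rose in colon by 2.18 ± 0.35 on the log2 scale by day 4 (edgeR adjusted p = 1.23e-05), 2.12 by day 8 and 2.35 by day 12, and in ileum by 1.74, 2.15 and 1.88. It was the only one of the 9 genes with a read count in the graft that rose in all 6 comparisons.

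Foxo1, the FOXO factor that controls gluconeogenesis in liver, had 266.7, 284.8 and 225.2 normalized reads in the graft. Colon had 351.3, 237.2 and 345.7 on day 4, then 351.2, 399.3 and 386.2 on day 8, and 227.3 to 399.1 on day 12. Ileum had 239.6 to 456.5 on day 4, 334.6 to 471.7 on day 8 and 249.0 to 473.2 on day 12. Only the day 8 groups lay wholly above the graft. The rise was 0.81 ± 0.27 on the log2 scale in colon by day 8 (edgeR adjusted p = 0.014) and 0.69 ± 0.26 by day 12 (0.0239), and in ileum 0.88 by day 4 (0.00631), 1.25 ± 0.26 by day 8 (0.000317) and 1.09 by day 12 (0.00105). By day 4 in colon Foxo1 missed the threshold (0.59, 0.0639, and 0.0115 to 0.411 over the alternatives, 0.0457 without ileum day 12 replicate 1). With libraries scaled to their totals, the calls in colon by day 8 (adjusted p = 0.0921) and day 12 (0.278) and in ileum by day 4 (0.136) were lost. The colon calls were also lost without graft replicate 1 (0.0527 and 0.0867) or graft replicate 3 (0.0582 and 0.092), and the day 12 call without colon day 12 replicate 4 (0.0958).

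Foxo3, which promotes quiescence and restrains myeloid activation, was near the limit of detection. It had 2, 2 and 3 reads in the graft libraries, a median of 19.0 normalized reads in colon (5.8 to 46.2) and of 6.3 in ileum (0 to 25.6), where 5 of 12 libraries had no read, so it was not tested in CD11c-DTR recipients. Its counted transcript model ends 3945 bases short of the 3′ end in the GENCODE vM1 annotation of the same build, against 0 to 91 bases for the other genes. Reads in that stretch would not be counted, and their number is not known here.

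Genes on either side of FOXO in its pathway were read as lists. Of 17 genes of the PI3K, AKT and SGK kinases that act on FOXO, 9 fell and 0 rose in colon by day 4, with a median log2 change of −1.05 against 0.21 over all genes, and 8 fell and 2 rose in ileum, where 24.5% of all genes fell in colon and 20.5% in ileum. Pik3cd, the leukocyte catalytic subunit, fell from 1597.4 to 42.7 normalized reads in colon (log2 change −4.90 ± 0.67), and Sgk3 from 778.8 to 32.0 (−4.26 ± 0.53). Akt1 fell by 1.05 ± 0.22 in colon and by 1.37 ± 0.20 in ileum. Of 26 genes listed as FOXO targets, 22 were tested, and 8 rose and 6 fell in colon by day 4 (median 0.01), 8 rose and 4 fell in ileum (median −0.04), shares close to those over all genes (35.9% rose and 24.5% fell in colon). Pck1, a gluconeogenic enzyme, went from 0 to 1577.5 in colon, at least 220-fold, and to 432.7 in ileum, at least 60.4-fold. Gadd45b, a stress-response gene, rose in ileum by 2.38 ± 0.40, and had a change of 0.87 in colon that missed the threshold (adjusted p = 0.0618). Trib1, a pseudokinase needed by tissue macrophages, rose by 2.34 in colon and 2.95 in ileum.

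Foxn3, a repressor acting in the cell-cycle checkpoint, had 115.1, 118.2 and 50.9 normalized reads in the graft. Its engrafted values ran from 104.7 to 170.8 in the 10 colon libraries and from 60.1 to 175.1 in ileum. All groups other than colon day 4 overlapped the graft. It passed the test in colon by day 4 (1.00 ± 0.36 on the log2 scale, edgeR adjusted p = 0.02) and day 8 (0.89, 0.0375) and in ileum by day 4 (0.92, 0.0311). Each of these calls was lost without graft replicate 3, the library at 50.9 (adjusted p = 0.122, 0.197 and 0.173), and with scaling to library totals (0.111, 0.138 and 0.237). The colon calls were also lost without colon day 4 replicate 3 (0.0591) and without colon day 8 replicate 3 (0.101) or 4 (0.121), and the ileum call without ileum day 4 replicate 2 (0.053) or 3 (0.0879). It was lost as well with ileum day 4 of experiment 2 only (0.23), only the groups compared (0.0604) and all 4 colon day 8 libraries (0.0597). With the experiment as a block the day 8 call was lost (0.0829). In ileum by day 8 (0.0683) and day 12 (0.128) Foxn3 missed the threshold, and each passed it when 1 library of its own group was left out (day 8 replicate 4, 0.0425; day 12 replicate 2, 0.0481).

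Colon and ileum were compared on each day. Of the 8 genes, 1 was higher in colon on day 4, 5 on day 8 and 5 on day 12 (Foxa1, Foxa2, Foxa3, Foxd2 and Foxp1), and none was lower, where 0.524%, 16.7% and 15.3% of all genes were higher in colon. The groups of these 5 genes did not overlap on days 8 and 12. The share of all genes without overlap is not given here, so this adds nothing to the calls. The median log2 difference of the 8 genes was 1.14 on day 8, against −0.05 over all genes, and 1.47 on day 12, against −0.01. Foxd2, at 10.2 to 43.4 normalized reads in ileum on days 8 and 12, lay below the level of the filter there. It needed the colon libraries to pass, so its part in these counts and medians was in part set by the filter. Foxa2, at 13.6 to 71.4 in the same ileum libraries, lay on both sides of that level. Foxd2 differed most, by 3.64 ± 0.65 on day 8 (edgeR adjusted p = 0.000383) and 3.70 ± 0.61 on day 12 (0.000374). Foxa2 differed by 2.65 ± 0.58 (0.00191) and 2.54 ± 0.54 (0.00164), and Foxa1 by 2.43 ± 0.38 (0.000212) and 2.04 ± 0.35 (0.000468). Foxp1 differed by 1.11 ± 0.25 and 1.21 ± 0.24. Foxa3 differed by 1.18 ± 0.40 on day 8 (0.0268) and 1.72 ± 0.37 on day 12 (0.00179), and its day 8 call was lost without colon day 8 replicate 2 (0.0707) or replicate 3 (0.0932) or ileum day 8 replicate 1 (0.0881). Foxp4, Foxo1 and Foxn3 did not pass the test between segments on any day. With library totals the share of higher in colon among calls of day 8 went from 47.8% to 66.2%.

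**Figure D2:**
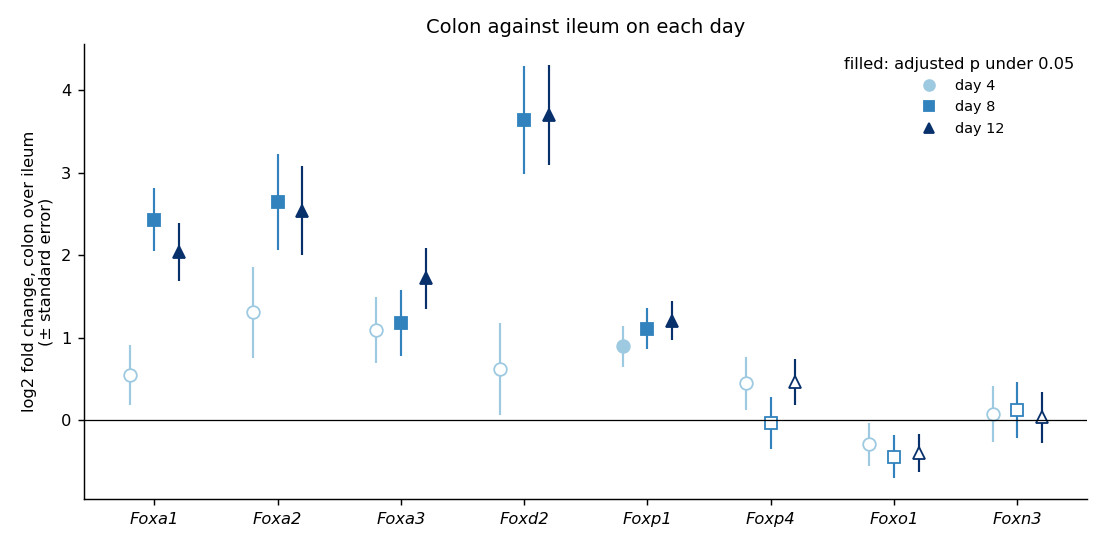
Log2 fold change of colon over ileum for each tested gene on days 4, 8 and 12 (points, with standard errors); filled points have an adjusted p below 0.05. Foxd2 reaches 3.64 on day 8 and 3.70 on day 12 from 0.62 on day 4, and Foxp4, Foxo1 and Foxn3 have no filled point.

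The same differences were seen within experiments, where 1 ileum day 8 library (replicate 2) was placed in experiment 3 by the day and month of its title, whose year matches none. On day 12 the log2 ratio of colon to ileum was 1.63, 2.24 and 2.47 for Foxa1 and 3.79, 4.48 and 3.12 for Foxd2 in experiments 1, 2 and 3, and on day 8 it was 2.40 and 2.93 for Foxa1 and 3.60 and 4.25 for Foxd2 in experiments 2 and 3. Day 4 depended on the experiment. Over all libraries only Foxp1 passed the test (0.90 ± 0.25, adjusted p = 0.0482), a call lost in 23 of 35 alternatives: leaving out any graft, colon day 4 or colon day 8 library, ileum day 4 replicate 1 or 4, colon day 12 replicate 1, 3 or 4, ileum day 8 replicate 1, 2 or 3 or ileum day 12 replicate 2 or 4 ended it, and adjusted p ranged from 0.000716 to 0.222. Colon day 4 came from experiments 2 and 3, so that experiment 1 has no colon library to set beside its ileum pair. With the experiment 2 ileum libraries alone, 5 genes were higher in colon, Foxd2 by 3.47 (adjusted p = 2.7e-05), Foxa2 by 2.19 (0.00687), Foxa3 by 2.14 (0.00144), Foxa1 by 1.57 (0.00132) and Foxp1 by 1.39 (0.000716). Leaving out ileum day 4 replicate 2 alone brought Foxa1 (0.00476) and Foxa2 (0.00571) past the threshold, and replicate 3 alone Foxa3 (0.0457). With the experiment as a block it was 3 genes, Foxa2 (1.90, 0.0437), Foxa3 (1.55, 0.0229) and Foxp1.

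From day 4 to day 8 in ileum, Foxd2 fell by 3.09 ± 0.64 on the log2 scale (edgeR adjusted p = 0.0102) and Foxa1 by 1.51 ± 0.37 (0.022), where 4.42% of all genes fell. Both calls rested on the experiment 1 libraries of day 4. With experiment 2 alone the changes were −0.23 (0.914) and −0.49 (0.689), and with the block −2.01 (0.217) and −1.10 (0.285). Leaving out ileum day 4 replicate 2 alone ended both (0.101 for Foxd2, 0.342 for Foxa1), and ileum day 8 replicate 1 (0.0509) or 4 (0.069) that of Foxa1. The colonic enterocyte genes (Car1, Slc26a3 and others) were at 24091 and 25762 normalized reads in those libraries, at 8343–19285 in colon and at 503–2913 in ileum of days 8 and 12. No gene of the 9 passed the test from day 4 to 8 or 8 to 12 in colon or from day 8 to 12 in ileum, and none had an unadjusted p below 0.05. Over all genes, edgeR and DESeq2 each called 0% there, with 204, 329 and 796 of 11842 at an unadjusted p below 0.05 by edgeR. Thus the days within colon, and days 8 and 12 within ileum, could not be ordered. Whether the segment difference changed from day 4 to day 12 was tested directly, and edgeR called 0% of genes (739 at an unadjusted p below 0.05; DESeq2 called 1, not one of the 9). Foxd2 (3.08 ± 0.83, adjusted p = 0.475) and Foxa1 (1.49 ± 0.50, adjusted p = 0.572) had unadjusted p-values of 0.00114 and 0.00702, and Foxd2 passed without ileum day 4 replicate 1 (3.48, adjusted p = 0.0322). With ileum day 4 of experiment 2 only its value was 0.23 (adjusted p = 1.0).

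Levels were also read per 10000 reads on the 13 epithelial genes, as a description. Foxa1 had 13.88 to 30.77 (median 25.39) in the 10 colon libraries and 9.95 to 31.36 (median 19.72) in the 8 ileum libraries of days 8 and 12, so the segments overlapped. Foxa2 had medians of 15.82 and 7.56 and also overlapped, and Foxa3 had 12.83 and 14.56. Foxd2 had 19.16 to 39.93 in colon and 3.32 to 16.75 in ileum, with no overlap. Foxp4 (16.03 to 28.32 in colon, 33.39 to 146.73 in ileum), Foxo1 (15.64 to 31.42, 64.94 to 182.16) and Foxn3 (6.63 to 10.9, 12.14 to 69.44) did not overlap either, with ileum higher. The share of all genes without overlap on this scale is not given here. Foxp1, with medians of 123.91 in colon and 199.26 in ileum, had the higher median in ileum on this scale, with overlap (103.27 to 150.8 and 101.3 to 231.17), where it was lower per mapped read.

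**Figure D3:**
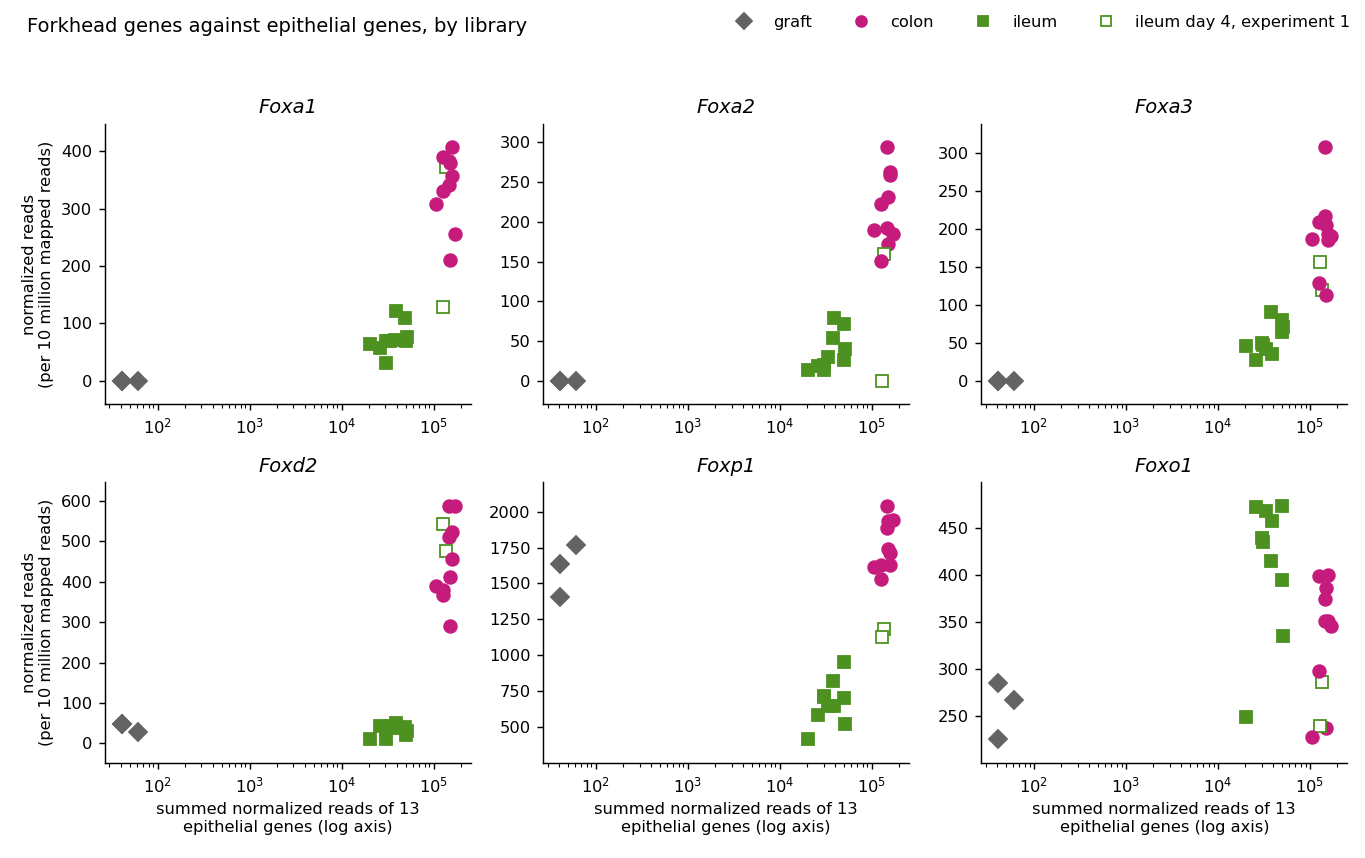
Normalized reads of 6 genes against the summed normalized reads of 13 epithelial genes in each CD11c-DTR library (points; log horizontal axis, linear vertical axes); open squares are the ileum day 4 libraries of experiment 1. Foxa1 increases from graft through ileum to colon, and the open squares (128094 and 135028 on the horizontal axis) lie among the colon libraries for Foxd2.

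Over the 22 engrafted libraries, which share experiments, segments and epithelial content, the Pearson correlation of log2 levels with the keratin gene Krt19 was 0.947 for Foxd2, 0.938 for Foxp1, 0.928 for Foxa1, 0.892 for Foxa3 and 0.840 for Foxa2. It was 0.459 for Foxp4, 0.440 for Foxn3 and −0.405 for Foxo1. The genes most like Foxa1 were Golph3l (0.980), the homeobox gene Hoxa10 (0.979) and BC030870 (0.977), and those most like Foxd2 were Ethe1 (0.986), Hsd17b2 (0.986) and Entpd5 (0.982). Foxa2 was most like Rab15 (0.968), Foxa3 most like BC002163 (0.950) and Foxp1 most like Rab3d (0.970). Foxp4 was most like the ribosomal protein gene Rpl19 (0.914) and Foxo1 most like Calcoco1 (0.915). For Foxn3 no gene exceeded 0.730 (Kxd1).

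The HNF genes that share enhancers with FOXA in endoderm gave a point of comparison. Of 9 listed, 5 were tested and all 5 rose in both segments by day 4, with a median log2 change of 4.91 in colon when genes at 0 in the graft were set to their lower bound. Hnf4a, the nuclear receptor of enterocytes and hepatocytes, went from 0 in the graft to 2380.4 normalized reads in colon by day 4, at least 332-fold, and to 1510.7 in ileum, at least 211-fold. Hnf4g reached 215.7 in colon. On day 8, 3 of the 5 were higher in colon, Hnf4a by 1.34 on the log2 scale, and Hnf4g did not pass.

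Of 35 other forkhead genes in the CD11c-DTR table, 10 were tested and 25 were below the filter, 12 of the latter with no read in any library used. By day 4 in colon 3 of the 10 rose, against 35.9% of all genes, and 5 fell, against 24.5%, led by Foxm1, the driver of G2/M genes, from 721.7 to 66.6 normalized reads (log2 change −3.10 ± 0.43, edgeR adjusted p = 1.6e-06), with Foxk1 (−1.52), Foxn2 (−1.41), Foxj2 (−1.37) and Foxk2 (−0.74). Foxq1 rose from 7.5 to 165.0 (4.67 ± 0.80), Foxf1, a mesenchymal factor, from 0 to 39.5 (at least 5.52-fold) and Foxs1 from 0 to 10.6 (at least 1.48-fold). These 3 genes, at 0 to 9.7 normalized reads in the graft, passed the filter through engrafted libraries alone. The count of rises was thus largely set by the filter. Foxs1 reached at most 16.3 in colon and passed through ileum libraries alone. Foxj3 and Foxo4 did not pass in either segment. On day 8, 3 of the 10 were lower in colon than in ileum, as were 18.3% of all genes: Foxs1 with a log2 difference of −3.63 (adjusted p = 0.0192, at 0 to 57.8 normalized reads), Foxf1 with −2.24 (0.0272) and Foxn2 with −1.11 (0.00775). The part of Foxs1 in this count was also set in part by the filter. The difference in Foxf1 went with endothelial genes at 1166–3210 normalized reads in ileum of days 8 and 12 against 174–658 in colon, and their part in this result was not tested. Fibroblast genes were at 0 in the graft, 461–4657 in colon and 199–4634 in ileum of days 8 and 12.

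Colon libraries of CX3CR1-DTR recipients on day 14 were set against CD11c-DTR colon on day 12 in normalized reads per 10000000 reads on genes. These groups differ in recipient, day, sequencing run, counting table and gate, which cannot be told apart. Of 9 genes, 2 were higher (25.1% of all 10677 genes were) and 4 lower (35.5%). Foxa1 had a lowest value of 0, a median of 19.2 and a highest of 97.2 in the 6 CX3CR1-DTR libraries and 498.7, 523.3, 588.6 and 694.6 in CD11c-DTR colon, with no overlap, a log2 difference of −4.12 ± 0.55 (edgeR adjusted p = 3.46e-05). Foxa3 went the other way, with 540.3 to 1446.3 against 230.2 to 450.2 (1.33 ± 0.29, 0.00152). Foxa2 had 57.2 to 253.7 against 269.3 to 430.3 (−0.87 ± 0.31, 0.0267), a call lost without colon day 12 replicate 1 (0.071) or replicate 4 (0.0825) or CX3CR1-DTR replicate 6 (0.0566). The 3 Foxa genes thus did not move together between these groups.

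**Figure D4:**
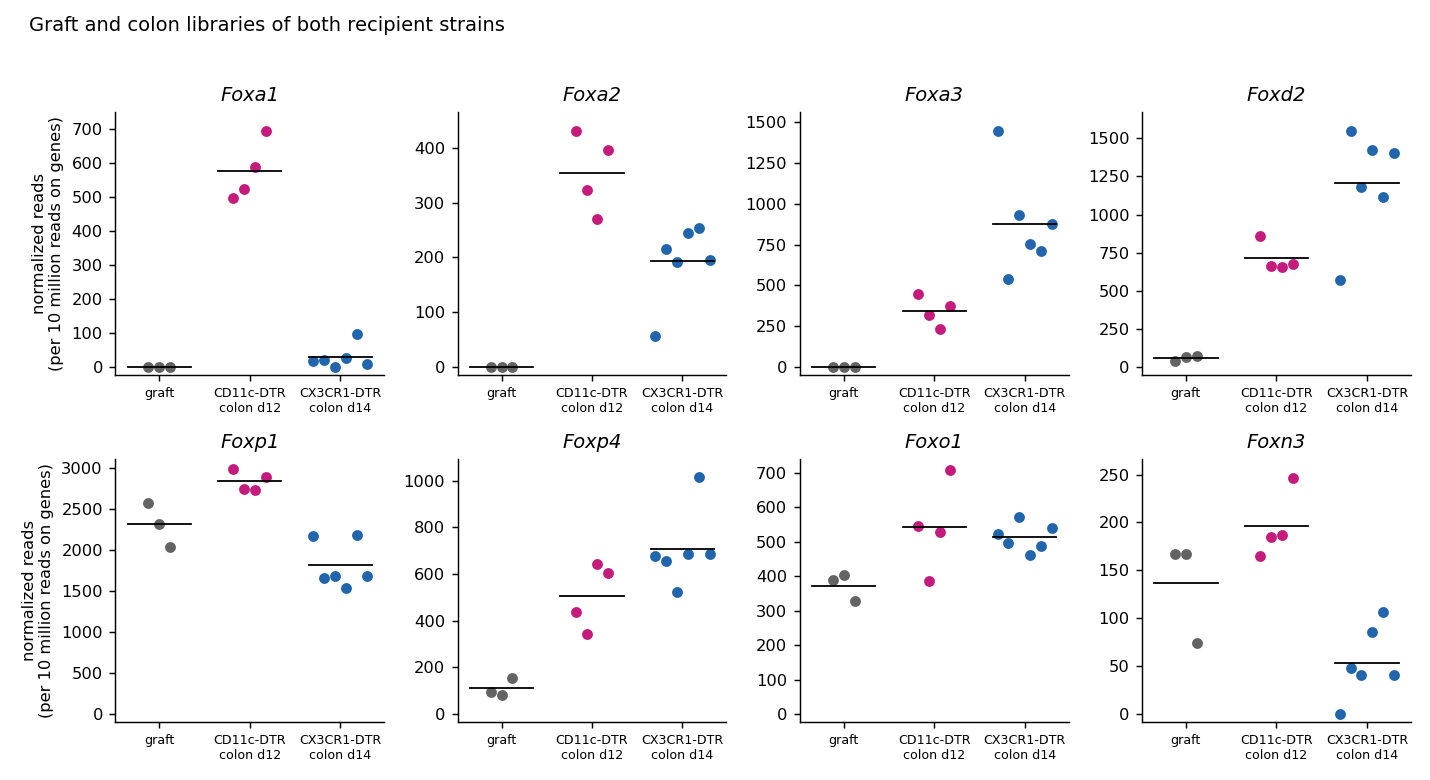
Normalized reads per 10000000 reads on genes for 8 of the genes (all but Foxo3) in graft, CD11c-DTR colon day 12 and CX3CR1-DTR colon day 14 libraries (points), with group means as horizontal lines; linear axes from 0. Foxa1 stays at 0 to 97.2 in CX3CR1-DTR colon, below 498.7 to 694.6 in CD11c-DTR colon, while Foxa3 is at 540.3 to 1446.3 against 230.2 to 450.2.

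Among the others, Foxd2 had 572.0 to 1550.6 in CX3CR1-DTR colon against 655.9 to 857.7, with overlap (0.74 ± 0.24, edgeR adjusted p = 0.0165), while Foxd2os was lower (−1.47 ± 0.30, 0.000601). Foxp1 had 1535.3 to 2185.9 against 2727.9 to 2989.1 with no overlap (−0.67 ± 0.15, 0.00144), and Foxn3 had 0 to 106.7 against 165.3 to 246.2 (−1.76 ± 0.46, 0.00426). Foxp4, Foxo1 and Foxo3 did not pass. The 13 epithelial genes summed to 216981–270560 in CX3CR1-DTR colon and 181570–227031 in CD11c-DTR colon, and 6 goblet cell genes to 119084–161250 and 84683–131246. Per 10000 epithelial reads Foxa1 had a median of 0.72 and Foxa3 33.86 in CX3CR1-DTR colon.

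Against the graft, 7 of the 9 genes rose in CX3CR1-DTR colon, where 39.3% of all genes did. Foxa1, Foxa2, Foxa3 and Foxo3 passed the filter through colon libraries alone, so their part in this count was largely set by the filter. Foxa3 was at least 84.7-fold higher (edgeR adjusted p = 2.83e-08), Foxa2 at least 18.6-fold, and Foxa1 at least 2.74-fold (0.00214), or 1.41-fold without replicate 5, with 3 of 6 libraries at or under 3 counts. Foxd2 rose by 4.59 ± 0.35 on the log2 scale, Foxp4 by 2.97 ± 0.32 and Foxo1 by 0.74 ± 0.21 (0.0049), the last not passing with library totals (0.0514). Foxo3, tested here because colon libraries brought it over the filter, rose by 2.58 ± 0.69 (0.00369) from 5.5–10.6 to 20.4–68.3. All 3 graft libraries and 2 of the 6 CX3CR1-DTR libraries were at or under 3 counts for Foxo3, so the size of this rise is uncertain. Foxp1 did not pass, and neither did Foxn3 (−0.93, adjusted p = 0.109), which was called lower without CX3CR1-DTR replicate 5 (0.0255), by DESeq2 (0.0372) and with library totals (0.0409).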

How the data were processed

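The libraries were made by a form of MARS-seq, which reads the 3′ ends of mRNA, from sorted cells. Before digestion the tissue was incubated with EDTA and DTT, a step meant to take off mucus and epithelium. Per the study's methods, the authors mapped reads to mouse build mm9 with HISAT 0.1.6, kept unique matches and counted exons of 1 transcript per gene on the sense strand with HOMER. The values deposited by the authors and used here are raw read counts per gene; bcl2fastq is also named in the submitters' processing notes. The CX3CR1-DTR table has 52 further columns that match no sample's label, and they were not used. All 6 CX3CR1-DTR libraries of the labels were used, where the study lists 4, and 1 of 4 colon day 8 libraries (replicate 1) was left out, since the study lists 3. That list gives numbers of repeats and does not name the libraries. Replicate 1 was the least like its group, with a chi-square per degree of freedom of 38.49 to 86.54 to the others, against 6.93 to 15.78 among those.

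Counts were tested with edgeR 4.0.16 in R 4.3.3 (TMM, quasi-likelihood, 2-sided, Benjamini-Hochberg adjusted p below 0.05), in 1 fit over the 25 CD11c-DTR libraries (11842 genes) and 1 over graft, colon day 12 and CX3CR1-DTR colon (10677 genes of the 22205 with the same symbol and transcript in both tables). Genes needed 50 normalized reads in at least 3 libraries. Normalized reads are counts scaled to 10000000 mapped reads of the library (for the CX3CR1-DTR comparisons, to 10000000 reads on genes, as that table gives no mapped total). Reads on genes ranged from 591817 to 5228664 per library; 1 read equalled 1.17 to 9.22 normalized reads. Limits from counts of 0 cover counting error only. No pair of libraries among 51 compared within groups agreed within sampling noise (smallest chi-square per degree of freedom 5.21).

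Dates in the titles give the experiment, which was tried as a block (1 ileum day 8 title has a year that matches no experiment, taken as a slip, and its day and month gave experiment 3; a block fit without that library was added after seeing the data): the mean correlation of deviations from group means was 0.02 for 96 same-experiment pairs and −0.01 for 171 others. Other alternatives were RLE size factors, library totals, DESeq2 1.42.0, no filter, edgeR's filterByExpr, only the groups compared, all 4 colon day 8 libraries, ileum day 4 of experiment 2 only, and leaving out each library. The scripts were tested on simulated data. Figures were drawn with matplotlib 3.10.9. The named genes are the 9, the other forkhead genes past the filter, up to 4 genes of each of 3 pathway lists with the lowest adjusted p, and the genes most correlated with each (log2 of normalized reads plus 50, 22 libraries). The members and lists were chosen with earlier results of these data known. Promoter windows came from RefSeq tables (GRCm38.p6), where all 9 genes matched, and helix codons from the mm9 genome with GENCODE vM1. A few genes and sequences under these rules are not reported here.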

Additional observations from a re-analysis of the deposited data

Results flagged for a closer look

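Of 45 groups of a gene with 4 to 6 libraries, 5 held a library whose gap to its nearest neighbour was large for the range of its group, where chance gives about 1 in 20. Foxa1 was at 109.0 normalized reads in ileum day 12 replicate 2, and at 97.2 in CX3CR1-DTR colon replicate 5. Foxa2 was at 57.2 in CX3CR1-DTR colon replicate 1, below the others. Foxd2 was at 585.8 in colon day 12 replicate 1, above the others. Foxp4 was at 1017.1 in CX3CR1-DTR colon replicate 5.

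The colon day 8 library left out of the comparisons (replicate 1, experiment 1) lay above all graft libraries, with more than 3 counts, for 5 genes, with 114.1 normalized reads for Foxa1, 53.7 for Foxa3, 87.2 for Foxd2, 127.5 for Foxp4 and 288.5 for Foxn3. For Foxa1, Foxa3, Foxd2 and Foxp4 it lay below the other 3 colon day 8 libraries, and for Foxn3 above them. Foxa2, at 0 in the graft, had 6.7 there from 1 count.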

How the results depend on the processing

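The 9 genes gave 77 results with a call in the fit reported or in an alternative, and 2352 of 2457 alternative values kept direction and side of the threshold, with 74 calls lost and 31 gained. Within single experiments, log2 ratios of normalized reads, which lack the TMM scaling of the fit, turned sign in 3 values of called results. All 3 were in experiment 2. They were Foxn3 from graft to colon by day 8 (−0.14) and to ileum by day 4 (−0.01), and Foxo1 from graft to colon by day 12 (−0.02). The fit scaled to library totals also gave lower values for these results, 0.62, 0.48 and 0.33 against 0.89, 0.92 and 0.69. Scale and experiment were thus not separated. The sign also turned in 6 values of results that were not called (Foxp1, Foxo1 and Foxn3). Of counts of genes called, 490 of 528 stayed within 1.5 times.

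Fitting only the groups compared gave 3 calls in place of 7 from graft to ileum by day 4 and 3 in place of 6 by day 8, since the filter then dropped Foxa2 and Foxa3, and on day 4 also Foxd2, while Foxn3 by day 4 (adjusted p = 0.0604) and Foxp1 by day 8 (0.0589) missed the threshold. For ileum day 4 to day 8 the count of 2 became 0 with only the groups compared, with experiment 2 alone and with the replicate block, and 0 to 2 when 1 library was left out. For colon over ileum on day 4 the count of 1 became 0 with no filter, filterByExpr, only the groups compared or all 4 colon day 8 libraries, 5 with experiment 2 alone, 3 with the block and 0 to 3 when 1 library was left out. The change of the segment difference gave 0 to 1 in place of 0. The block changed no call of the 9 genes beyond those given with the results, and gave the same counts of 0 and 3 without the ileum day 8 library of unmatched year. All 4 colon day 8 libraries ended the calls of Foxo1 in colon by day 8 (adjusted p = 0.0545), of Foxn3 in ileum by day 4 (0.0597) and of Foxa3 between segments on day 8 (0.0709). The causes were not tested.

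Over all genes, calls for colon over ileum on day 4 numbered 377, against 164 with library totals, 1080 with DESeq2, 0 with only the groups compared, 7 with all 4 colon day 8 libraries, 3067 with experiment 2 alone, 1265 with the block and 0 to 2089 when 1 library was left out. For ileum day 4 to day 8 they numbered 608, against 994, 381 (all 4 colon day 8 libraries), 0 (only the groups compared, experiment 2 alone or the block) and 0 to 1345. For colon over ileum on day 8 they numbered 4144, with a lowest value of 2647 without 1 library. The segment difference gave 0, against 1 by DESeq2 and up to 61 without 1 library. With library totals the share of higher in colon went from 16.4% to 26.2% on day 4 and from 47.8% to 66.2% on day 8. Counts of at most 28 reads limit Foxo3.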
